A study of Homo sapiens with 3 samples.

Results

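The 443 genes of biotype tRNA that RefSeq annotates on chromosomes 1 to 22 and X of GRCh38.p14, among 59098 genes of all classes, were each paired with the nearest MYC summit in U2OS cells. A tRNA gene is called near where that summit lay within 1000 bp of it, and the distance is counted from the summit to the closer edge of the gene, or as 0 inside it. The choice of genes used no measured value. The genes are 70 to 108 bp long, with a median of 73 bp.

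MYC occupancy was measured by ChIP-Rx, a form of ChIP-seq that adds cells of another species for scaling. The cells were parental U2OS, an established human osteosarcoma line. There are 2 anti-MYC immunoprecipitation (IP) libraries, which the design text calls biological replicates, and 1 input library without antibody. All libraries come from untreated U2OS cells to which mouse NIH3T3 fibroblasts, fixed in the same way, had been added at 10%. The values are those of 1 deposited list of 9818 peaks, so every fold enrichment over input and every −log10 q below is the authors' own for a peak, with no replicate error and with the sequencing depth unknown.

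Transfer RNAs carry amino acids to the ribosome, and each reads codons through its anticodon. Their genes are transcribed by RNA polymerase III from an internal promoter made of an A box and a B box, which TFIIIC binds before TFIIIB is placed upstream of the gene and brings in the polymerase. MYC binds promoters of RNA polymerase II genes with MAX, and has also been reported to bind TFIIIB and to raise transcription by RNA polymerase III.

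Sequences of RefSeq promoter windows (GRCh38.p14, 250 bases before to 50 after the start of a gene) hold 14 of the 443 tRNA genes whole and 13 in part. The 6 near genes among the 14 are given here 5′ to 3′, because they let a reader see the transcribed unit beside which the summits lay. The first capitals mark the anticodon, and the second mark the B box as the letters GTTCNANNC, where N is any base, searched on both strands and accepted in the last part of the gene.
TRR-ACG2-1 (arginine, chr3:45688999-45689071, minus strand): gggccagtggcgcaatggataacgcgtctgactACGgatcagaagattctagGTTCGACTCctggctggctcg
TRT-TGT6-1 (threonine, chr5:181191687-181191758, minus strand): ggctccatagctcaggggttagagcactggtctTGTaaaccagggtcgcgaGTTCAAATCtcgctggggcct
TRI-TAT2-2 (isoleucine, chr6:27020346-27020439, plus strand): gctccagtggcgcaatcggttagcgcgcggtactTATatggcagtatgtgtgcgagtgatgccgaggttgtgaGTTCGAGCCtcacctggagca
TRF-GAA1-5 (phenylalanine, chr13:94549650-94549722, minus strand): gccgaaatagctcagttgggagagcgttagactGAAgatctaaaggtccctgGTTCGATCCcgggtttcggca
TRP-TGG3-2 (proline, chr14:20684016-20684087, plus strand): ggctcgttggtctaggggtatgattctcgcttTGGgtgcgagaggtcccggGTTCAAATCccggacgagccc
TRG-CCC2-2 (glycine, chr16:636736-636806, minus strand): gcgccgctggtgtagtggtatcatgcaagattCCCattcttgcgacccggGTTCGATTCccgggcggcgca

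The next 2 sequences belong to genes with no near summit. The first has the same 72 bases as TRP-TGG3-2 above, and the second is a histidine gene, a class with no near member.
TRP-TGG3-5 (proline, chr16:3188094-3188165, plus strand): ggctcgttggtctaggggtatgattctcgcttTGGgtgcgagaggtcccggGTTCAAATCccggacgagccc
TRH-GTG1-9 (histidine, chr15:45201151-45201222, plus strand): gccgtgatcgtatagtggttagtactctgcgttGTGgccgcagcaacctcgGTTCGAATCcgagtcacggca
TRP-TGG3-2 had a summit at 368 bp, in a peak with a fold of 3.06 that covered none of the gene. That summit was 105 bp from an end of RNASE4, a protein-coding gene. The summit closest to TRP-TGG3-5 was 38219 bp away. Of the other near genes shown, TRR-ACG2-1, TRF-GAA1-5 and TRG-CCC2-2 had summits 158, 43 and 5 bp from ends of SACM1L, DCT and METTL26. The summits near TRT-TGT6-1 and TRI-TAT2-2 were 151 and 99 bp from ends of long noncoding RNA genes. The summit closest to TRH-GTG1-9 was 34218 bp away. The letters GTTCNANNC stood in 2616 of all 34943 distinct promoter windows (7.49%), so they mark the B box here only because of their place in a tRNA gene.

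A MYC summit lay near 79 of the 443 tRNA genes (17.8%, Wilson 95% interval 14.5 to 21.7). The 79 genes were served by 64 distinct peaks. Of these peaks 51 served 1 tRNA gene, 12 served 2 and 1 served 4, so 28 of the near genes shared their peak and the genes are not independent. By the same distance 19.7% of genes of all classes and 44.1% of the 19974 protein-coding genes had a near summit. Both of those backgrounds contain long genes, inside which a summit also counts. Among the 6542 genes of other classes that are at most 200 bp long the share was 2.71%.

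A class of like size are 107 annotated pseudogenes with tRNA symbols, some of them copies of mitochondrial tRNAs, and none of them had a near summit. They were chosen by symbol, and their sequences were not compared. Only 1 of the 107 (0.935%) had a protein-coding end within 1000 bp, against 56 of the 443 tRNA genes (12.6%). A count of 0 of 107 allows a share of up to 2.8% when the limit is set at 3 counts of the total, and the Wilson interval reaches 3.47%. Small nuclear RNA genes had a near summit in 17 of 154 cases (11%, 7.01 to 17), microRNA genes in 94 of 1911 (4.92%, 4.04 to 5.98) and small nucleolar RNA genes in 37 of 1196 (3.09%, 2.25 to 4.23). None of 49 ribosomal RNA genes had one, which allows a share of up to 6.12% by the limit of 3 counts, with a Wilson interval reaching 7.27%. These differences were not tested, because genes of a locus share peaks. All intervals cover counting error only.

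All near summits lay outside the tRNA genes themselves. No summit fell inside any of the 443 genes, which allows a share of up to 0.677% by the limit of 3 counts. That share is of all 443 genes, of which 364 had no near summit. Among the near genes, 7 were within 100 bp, 54 over 100 and up to 500 bp away and 18 farther out. The median distance of the 79 near genes was 347 bp (quartiles 210 and 480 bp). The genes themselves take up a small part of such a window. Summits fell inside 3 small nuclear RNA genes, and 10 of the 17 near ones of that class (58.8%) were within 100 bp, with a median of 92 bp, against 7 of 79 tRNA genes (8.86%). Other short classes were closer to the tRNA genes. Summits fell inside 5 microRNA genes, and 18 of the 94 near ones (19.1%) were within 100 bp (median 404 bp). For small nucleolar RNA genes these counts were 1 inside and 5 of 37 (13.5%), with a median of 665 bp.

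**Figure D1:**
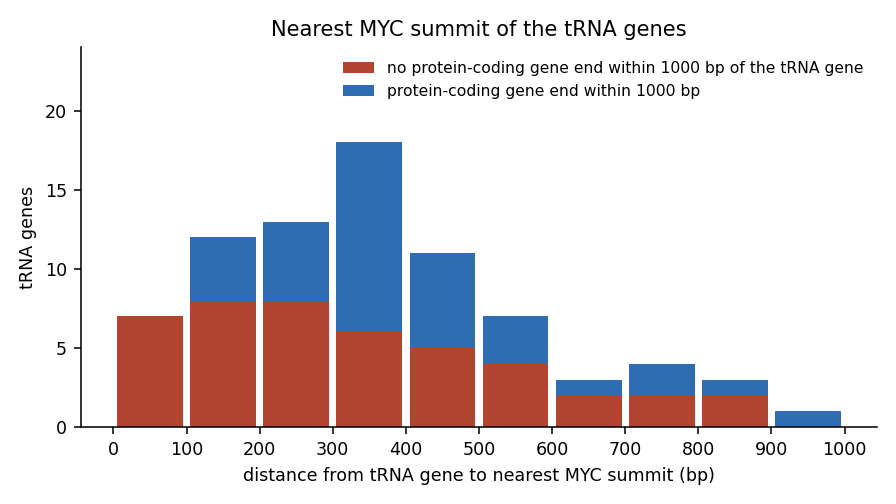
Number of tRNA genes by the distance to their nearest MYC summit, in steps of 100 bp up to 1000 bp. Red bars are genes with no protein-coding gene end within 1000 bp and blue bars, stacked on them, are genes with such an end. The 7 genes within 100 bp are all red, and the highest bar, 18 genes between 300 and 400 bp, holds 12 genes with such an end.

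The closest summit was 21 bp from TRR-TCT3-2, an arginine gene on chromosome 11, followed by TRG-GCC1-5 on chromosome 21 at 29 bp and TRK-TTT5-1 on chromosome 11 at 46 bp. TRR-CCT1-1 (71 bp), TRP-CGG1-1 (78 bp), TRX-CAT1-8 (80 bp) and TRA-TGC4-1 (92 bp) complete the 7, a group chosen for its values. Their folds ranged from 5.30 at TRG-GCC1-5 to 15.3 at TRR-TCT3-2. None of these 7 summits lay within 1000 bp of a protein-coding gene end.

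The body of the peak often reached over the gene even though the summit did not. The nearest peak covered the whole gene in 45 of the 79 near genes (57%), a part of it in 7 and none of it in 27. Where the summit was over 1000 bp from every protein-coding gene end the peak covered the whole gene in 34 of 47 cases, and where it was at such an end in 11 of 32.

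The direction of transcription could be read from the B box of 9 near genes whose sequence lies in a promoter window. The summit was upstream of 4 of them (TRR-ACG2-1, TRT-TGT6-1, TRI-TAT2-2 and TRT-AGT1-3) and downstream of 5 (TRG-CCC2-1, TRF-GAA1-5, TRP-TGG3-2, TRG-CCC2-2 and TRL-AAG2-4). These 9 genes lie at starts of other genes by the way their sequences were found, so they do not stand for the 79.

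Peaks near tRNA genes were of ordinary height. The 64 peaks had a median fold of 7.94 (quartiles 5.84 and 11.1, range 2.51 to 22.4), beside 7.78 (5.58 and 11.5) for all 9818 peaks, whose highest fold was 119. Their median −log10 q was 43.8, beside 47.8 for all peaks, and 31 of the 64 belonged to the stronger 50% of the list by −log10 q. The median width was 858 bp, beside 747 bp for all peaks. By −log10 q the strongest peak near a tRNA gene ranked 669 in the list.

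That strongest peak (chr15:89334203-89335391, fold 21.1, −log10 q 220) had its summit 318 bp from TRR-TCG1-1, an arginine gene, and 69 bp from an end of POLG, the mitochondrial DNA polymerase gene. The highest fold of the 64, 22.4, belonged to the second by −log10 q, 532 bp from the glutamate gene TRE-CTC1-7 on chromosome 6 and 265 bp from an end of NCOA7, a nuclear receptor coactivator gene. The next pair lay far from protein-coding ends. The third, with a fold of 17.7, was 478 bp from TRQ-TTG1-1, a glutamine gene on chromosome 17, and 14184 bp from the closest protein-coding end. The peak after it, with a fold of 14.1, was 125 bp from TRI-TAT2-1, an isoleucine gene on chromosome 2, and 17828 bp from one.

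The fifth (fold 18.6) lay 295 bp from TRX-CAT1-1, an initiator methionine gene on chromosome 1, and 38 bp from an end of ILF2, which encodes a double-stranded RNA-binding protein. The sixth (19.6) lay 423 bp from TRL-AAG2-4, a leucine gene on chromosome 16, and 235 bp inside POLR3E, which encodes a subunit of RNA polymerase III itself. The seventh (10.7) was 532 bp from TRT-TGT2-1 and 56655 bp from a protein-coding end. In the eighth (12), on chromosome 6, the summit lay 165 bp from TRR-ACG1-2, 319 bp from TRV-CAC1-6 and 631 bp from HMGN4, a nucleosome-binding protein gene.

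The ninth (17.4) was 255 bp from the asparagine gene TRN-GTT2-4 on chromosome 13 and 13526 bp from a protein-coding end. The tenth (18.4) served TRF-GAA1-6 and TRN-GTT2-6 on chromosome 19, and its summit was 80 bp from an end of NDUFS7, a gene of respiratory complex I. The eleventh (7.74) lay 248 bp from TRQ-CTG1-4 and 110 bp from an end of RAB11A, a gene for a membrane recycling GTPase. The twelfth (12), 2510 bp wide, lay 880 bp from TRR-TCT1-1 and 1458 bp from BCAR3. Of these 12 peaks, 5 were over 1000 bp from both span ends of every protein-coding gene, which makes them the 5 strongest of that kind, although the twelfth lay 526 bp from a transcript start inside BCAR3.

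The start of POLR3E is shown because part of a tRNA gene lies in it. These are the 250 bases before the annotated start at 22297409 on chromosome 16, and the 63 capitals are the downstream part of TRL-AAG2-4, which runs in the same direction as POLR3E.
POLR3E (chr16:22297159-22297408, plus strand): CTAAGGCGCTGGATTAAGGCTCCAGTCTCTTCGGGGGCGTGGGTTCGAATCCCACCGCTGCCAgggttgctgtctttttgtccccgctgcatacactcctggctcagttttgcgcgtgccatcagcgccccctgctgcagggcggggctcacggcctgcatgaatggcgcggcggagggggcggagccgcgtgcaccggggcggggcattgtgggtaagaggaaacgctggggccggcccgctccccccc
The peak runs from 22297209 to 22298093 and so overlaps the last bases of the tRNA gene and these bases, while its summit lies at 22297644, past the start of POLR3E.

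The summits of 15 of the 64 peaks lay in 16 distinct promoter windows. The E-box CACGTG, a sequence that MYC and MAX bind, stood in 1 of the 16 (6.25%), against 2526 of all 34943 windows (7.23%). The variant CACGCG, read on both strands, stood in 3 of the 16 (18.8%), against 3988 of all windows (11.4%). The 1 window with CACGTG is that of NDUFS7, shown with the E-box in capitals.
NDUFS7 (chr19:1383657-1383906, plus strand): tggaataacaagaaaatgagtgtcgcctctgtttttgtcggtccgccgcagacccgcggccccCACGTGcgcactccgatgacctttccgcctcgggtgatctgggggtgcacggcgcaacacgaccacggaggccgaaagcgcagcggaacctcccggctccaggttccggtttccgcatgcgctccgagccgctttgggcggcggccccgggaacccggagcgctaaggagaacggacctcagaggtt
TRF-GAA1-6 and TRN-GTT2-6 lie before this stretch, at chr19:1383362-1383434 and chr19:1383563-1383636. The windows hold the starts of other genes, so the remaining peaks near tRNA genes were not searched for motifs.

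Near summits were also described by their distance to protein-coding genes, counted to the closer end of the annotated gene span without regard to strand, so such an end need not be a promoter. Of the 79 near tRNA genes, 32 had a summit within 1000 bp of a protein-coding gene end and 47 had one farther from every such end. Measured from the tRNA gene and not from the summit, 44 of the 79 were over 1000 bp from every such end. Counted by peak, 27 of the 64 lay at a protein-coding end and 37 did not. Of the 37, 8 had an end of a long noncoding RNA gene within 1000 bp, and 27 lay over 1000 bp from the span ends of all annotated genes other than tRNA genes, 14 of them over 5000 bp.

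Span ends miss transcript starts inside a gene. RefSeq promoter windows, which cover 15812 of the 19974 protein-coding genes, add such starts. With these starts counted as well, a choice made after seeing the data, 36 of the 79 near tRNA genes had a summit within 1000 bp of a protein-coding end or start and 43 did not, and by peak 31 of the 64 did and 33 did not. The peaks that changed side were those near TRD-GTC2-8, with its summit 136 bp from a start of LTA4H, TRA-AGC8-1 (141 bp from a start of AGBL5), TRR-TCT1-1 (526 bp, BCAR3) and TRM-CAT6-1 (687 bp, FBXO31). Over 1000 bp from the ends and starts of all other genes lay 25 peaks, 13 of them over 5000 bp. The median fold was then 8.05 for the 33 peaks and 7.74 for the 31.

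Where the summit was at a protein-coding end it was usually closer to that end than to the tRNA gene, in 27 of 32 cases, with median distances of 158 bp to the protein-coding end and 372 bp to the tRNA gene. In the 47 other genes the median distance to the tRNA gene was 301 bp. The 37 peaks away from protein-coding ends had a median fold of 8.19 (quartiles 6.5 and 10.7), against 7.33 (4.44 and 12.3) for the 27 peaks at such ends. All 3431 peaks of the list away from protein-coding ends had a median fold of 7.16, and all 6387 at such ends one of 8.16.

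**Figure D2:**
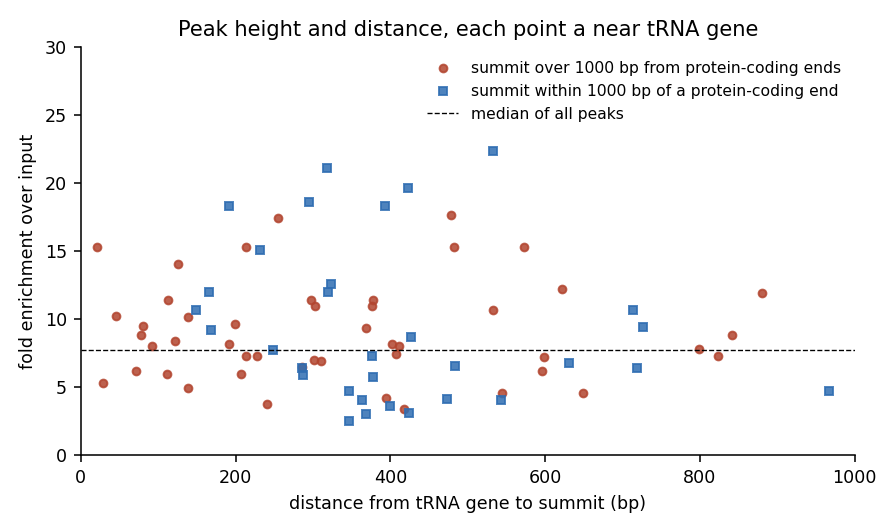
Fold enrichment over input of the nearest peak against the distance from the tRNA gene to its summit, for the 79 near genes. Red circles are summits over 1000 bp from every protein-coding gene end, blue squares are summits within 1000 bp of one, and the dashed line is the median fold of all 9818 peaks, 7.78. The summits closest to tRNA genes, under 100 bp, are all red, and the highest folds, over 20, are blue.

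The distance of a tRNA gene from protein-coding ends went with the share that had a near summit. Of the 56 tRNA genes with a protein-coding end within 1000 bp, 35 were near a summit (62.5%, 49.4 to 74). With the closest end over 1000 and up to 5000 bp away, 10 of 54 were near (18.5%, 10.4 to 30.8), and with it over 5000 and up to 20000 bp away, 20 of 120 (16.7%, 11.1 to 24.3). Of the 213 tRNA genes over 20000 bp from every protein-coding end, 14 were near a summit (6.57%, 3.96 to 10.7). With annotated starts counted as ends, the counts from the closest class to the farthest were 37 of 59, 10 of 54, 18 of 117 and 14 of 213.

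Other short genes at the same distances had the following shares, given without a test. Over 20000 bp from protein-coding ends 0 of 70 tRNA pseudogenes, 2 of 89 small nuclear RNA genes (2.25%, 0.618 to 7.83), 8 of 863 microRNA genes (0.927%, 0.47 to 1.82) and 1 of 585 small nucleolar RNA genes (0.171%, 0.0302 to 0.962) were near a summit. Between 5000 and 20000 bp the counts were 0 of 33 pseudogenes, 5 of 45 small nuclear RNA genes (11.1%, 4.84 to 23.5), 7 of 481 microRNA genes (1.46%) and 3 of 304 small nucleolar RNA genes (0.987%). Between 1000 and 5000 bp, in the same order, they were 0 of 3, 1 of 9 (11.1%), 13 of 344 (3.78%) and 6 of 225 (2.67%). Within 1000 bp of a protein-coding end they were 9 of 11 small nuclear RNA genes (81.8%, 52.3 to 94.9), 66 of 223 microRNA genes (29.6%, 24 to 35.9) and 27 of 82 small nucleolar RNA genes (32.9%). Only 1 tRNA pseudogene lay that close to a protein-coding end, and it had no near summit.

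**Figure D3:**
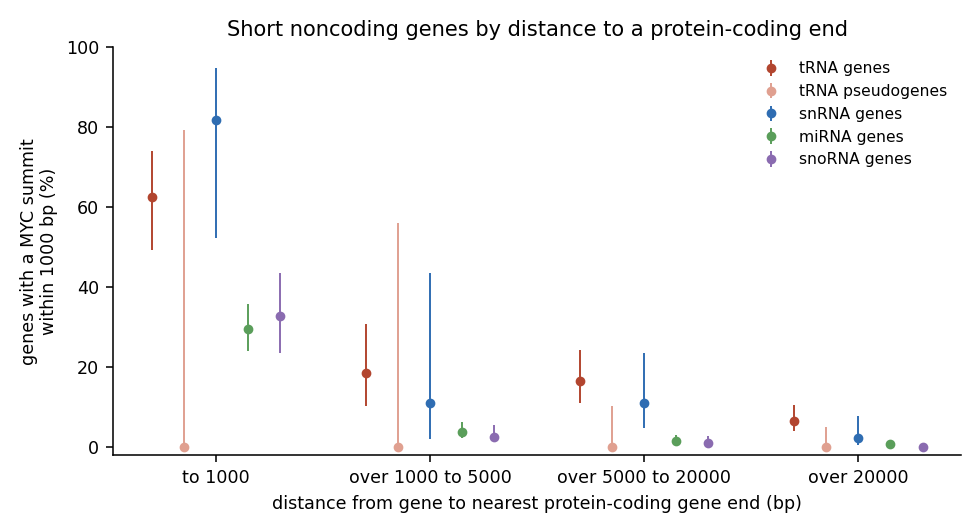
Percentage of genes with a MYC summit within 1000 bp, by the distance from the gene to the closest protein-coding gene end, for tRNA genes, tRNA pseudogenes, small nuclear RNA, microRNA and small nucleolar RNA genes. Points are shares and bars are Wilson 95% intervals. The share of tRNA genes is 62.5% in the closest class and 6.57% in the farthest, and the interval of the pseudogene in the closest class rests on 1 gene.

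By chromosome, the near genes were spread over 19 of the 22 chromosomes that carry tRNA genes. Chromosomes 6 and 1 hold 155 and 98 tRNA genes, and together had 14 near genes of 253 (5.53%, 3.32 to 9.07). The other chromosomes had 65 of 190 (34.2%, 27.8 to 41.2). Chromosome 17 had the most near genes, 13 of 33, served by 9 peaks. On chromosome 19, 6 of 7 were near, on chromosome 13 all 4, on chromosome 12, 6 of 9, on chromosome 11, 6 of 13, and on chromosome 15, 5 of 9. Chromosome 7 had 1 of 22 and chromosome 5, 1 of 18, while chromosome 16 had 4 of 26 and chromosome 14, 5 of 19. The single tRNA genes of chromosomes 4, 18 and 22 were not near a summit, and that of chromosome 21 was.

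**Figure D4:**
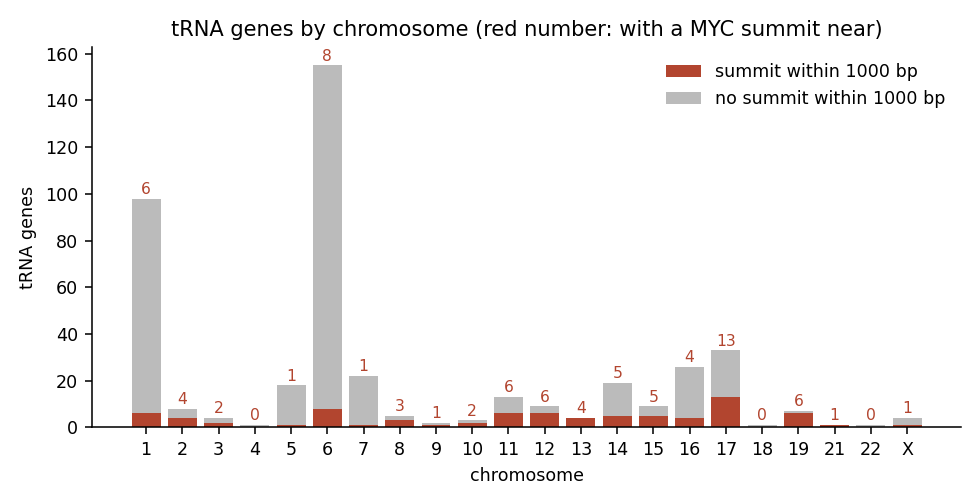
Number of tRNA genes on each chromosome, with genes near a MYC summit in red and the others stacked on them in grey. The red number above each bar is the count of near genes, 6 of 98 on chromosome 1, 8 of 155 on chromosome 6 and 13 of 33 on chromosome 17.

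This difference between chromosomes was also seen at matched distances from protein-coding ends, except in the closest class. Over 20000 bp from such ends, 5 of 163 tRNA genes on chromosomes 1 and 6 were near a summit (3.07%, 1.32 to 6.98), against 9 of 50 on the others (18%, 9.77 to 30.8). Between 5000 and 20000 bp the counts were 3 of 65 (4.62%, 1.58 to 12.7) and 17 of 55 (30.9%, 20.3 to 44), and between 1000 and 5000 bp they were 0 of 17 and 10 of 37. Within 1000 bp they were 6 of 8 and 29 of 48.

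The tRNA genes of chromosome 6 are concentrated next to the histone genes of its short arm. Between 26 and 29 Mb lie 144 of the 155, of which 6 were near a summit, and the region holds 23 peaks in all. These 6 are TRX-CAT1-2 (631 bp, fold 6.77), TRL-CAG1-7 (622 bp, 12.3), TRR-ACG1-2 (165 bp) and TRV-CAC1-6 (319 bp) with their shared peak of fold 12, TRI-TAT2-2 (139 bp, 10.2) and TRV-AAC1-5 (138 bp, 4.93). The summit near TRX-CAT1-2 was 361 bp from an end of H4C8, a histone H4 gene. The summits near TRI-TAT2-2 and TRV-AAC1-5 were 112109 and 54217 bp from the closest protein-coding ends. Of the 11 tRNA genes elsewhere on chromosome 6, TRE-CTC1-7 and TRL-TAA1-1 (310 bp, fold 6.91) were near a summit.

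Genes that stand alone were near a summit in a larger share of cases than genes in clusters. A cluster here is a run of 2 or more tRNA genes with gaps of at most 20000 bp, and there were 70 clusters with 340 genes beside 103 genes alone. Of the genes alone, 39 were near a summit (37.9%, 29.1 to 47.5), each with a peak of its own. Of the genes in clusters, 40 were (11.8%, 8.76 to 15.6), in 19 of the 70 clusters. Counting each cluster and each gene alone as 1 locus, 58 of 173 loci had a near summit (33.5%, 26.9 to 40.9).

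The share was higher for genes alone at each distance from protein-coding ends, with intervals that overlap in all distance classes but the farthest. Within 1000 bp of one, 19 of 25 genes alone were near a summit and 16 of 31 in clusters. Over 20000 bp from every end, 8 of 38 genes alone were near (21.1%, 11.1 to 36.3) and 6 of 175 in clusters (3.43%, 1.58 to 7.28). The 6 share 2 peaks. The intervals treat genes of a cluster as independent, so whether they overlap is no test.

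The 8 clusters of 10 or more genes hold 135 tRNA genes, of which 6 were near a summit (4.44%, 2.05 to 9.36). The largest, 28 genes at chr6:27478812-27688261, had none, and the summit closest to it was 5555 bp away. The cluster of 26 genes at chr1:161422093-161480636 had none either, with the closest summit at 22800 bp. That summit, of a peak with a fold of 7.45, lay 407 bp from TRV-CAC1-1, a valine gene that stands alone just before the cluster. Clusters of 18 genes (chr6:26673362-26828299) and of 10 genes (chr6:28710589-28764463) also had none, with closest summits at 13992 and 310781 bp.

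Of the 4 other large clusters, that of 13 genes at chr6:26521208-26594962 had 3 near genes, namely TRL-CAG1-7, TRR-ACG1-2 and TRV-CAC1-6. The 13 genes at chr6:26286526-26331515 had 1, TRX-CAT1-2, the 13 at chr5:181164154-181222467 had 1, TRT-TGT6-1, and the 14 at chr16:3150674-3192060 had 1, TRR-CCG1-3 (799 bp, fold 7.83). In many-copy arrays reads can match several places. How such reads were treated is not given in the sources used here, and its part in these counts was not tested.

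A smaller cluster on chromosome 11 had the most near genes of all clusters. Of its 8 genes (chr11:59550629-59566452), 6 were near a summit, through 3 peaks, and its closest protein-coding end was 7946 bp away. A peak with a fold of 15.3 served TRV-TAC1-1 (572 bp), TRV-TAC2-1 (214 bp), TRR-TCT3-2 (21 bp) and TRL-TAA3-1 (482 bp), the largest number of tRNA genes for a peak here. TRK-TTT5-1 (46 bp) had a peak with a fold of 10.3 and TRK-TTT3-4 (649 bp) one of 4.58.

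On the short arm of chromosome 17, 3 clusters each had 2 near genes that share a peak. In the first, of 7 genes (chr17:8119155-8139525), they were TRS-CGA1-1 (112 bp) and TRT-AGT5-1 (378 bp), with a fold of 11.4. In the second, of 4 genes, they were TRI-AAT5-5 (286 bp) and TRT-AGT1-1 (719 bp), with a fold of 6.39, and in the third, of 7 genes (chr17:8220869-8227064), TRP-CGG1-3 (228 bp) and TRD-GTC2-11 (823 bp), with a fold of 7.31. Pairs in which both genes were near a summit stood on chromosome 1 (TRP-CGG1-1 and TRP-AGG2-1), chromosome 2 (TRY-GTA2-1 and TRA-AGC8-1), chromosome 12 (TRD-GTC1-1 and TRW-CCA4-1) and chromosome 19 (TRF-GAA1-6 with TRN-GTT2-6, and TRG-TCC1-1 with TRV-CAC3-1). The pair on chromosome 2 had a peak each, with folds of 2.51 and 3.81.

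By amino acid, near genes were found in 20 of 22 classes, counting initiator methionine and selenocysteine apart, and in 42 of 49 anticodon classes. Arginine had the most and the highest share, 12 of 26 (46.2%, 28.8 to 64.5), through 11 peaks. Within arginine, 3 of 4 genes with the anticodon CCT, 3 of 6 with TCT, 2 of 4 with CCG, 3 of 7 with ACG and 1 of 5 with TCG were near a summit, and 8 of the 26 arginine genes had a protein-coding end within 1000 bp. Initiator methionine followed with 3 of 8 (37.5%, 13.7 to 69.4), then threonine with 7 of 20 (35%, 18.1 to 56.7), of which 1 of the 20 had a protein-coding end that close. Aspartate and tyrosine each had 4 of 13 (30.8%), with such an end at 0 of the 13 aspartate genes and 4 of the 13 tyrosine genes.

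At the lower end, cysteine had 1 of 29 (3.45%, 0.611 to 17.2) and alanine 2 of 38 (5.26%, 1.46 to 17.3). Most cysteine genes lie on chromosome 7, where 1 of 22 tRNA genes was near a summit. Most alanine genes lie on chromosome 6, where 8 of 155 were. The part of location in these shares was not tested. The initiator and elongator methionine genes share the anticodon CAT, and 3 of 8 against 1 of 11 were near a summit, with intervals that overlap (13.7 to 69.4 and 1.62 to 37.7). The 3 initiator genes were TRX-CAT1-1, TRX-CAT1-2 and TRX-CAT1-8, and the elongator gene was TRM-CAT6-1 on chromosome 16 (369 bp, fold 9.36). None of 9 histidine genes (interval reaching 29.9%) and neither of the 2 selenocysteine genes, TRU-TCA1-1 and TRU-TCA2-1, was near a summit. For the selenocysteine genes the closest summits were 22578 and 126644 bp away. No gene of the table has a symbol for a suppressor or undetermined type.

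**Figure D5:**
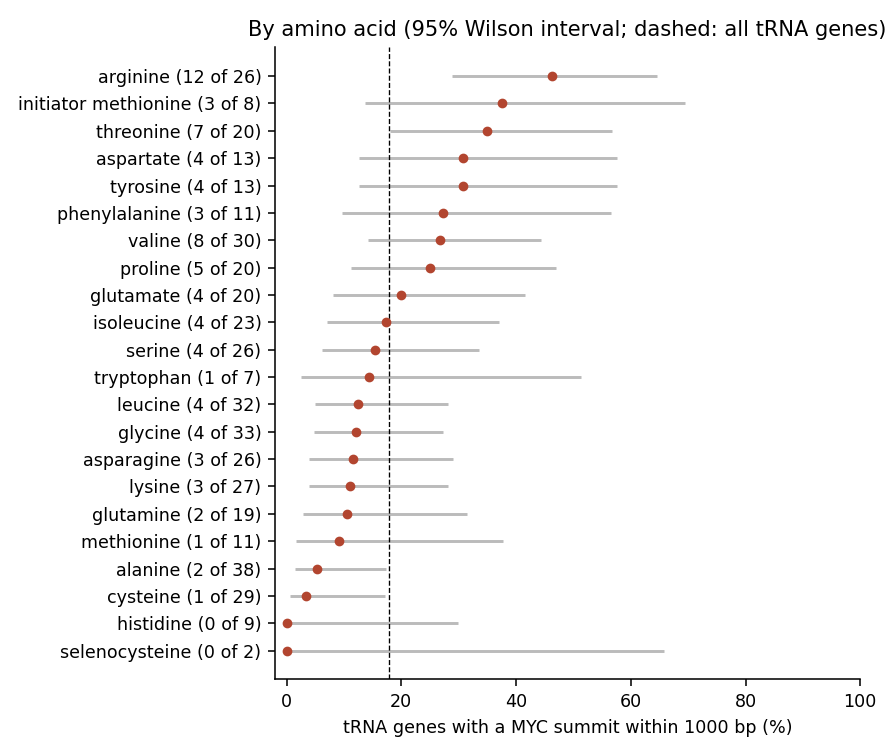
Percentage of tRNA genes with a MYC summit within 1000 bp for each amino acid class, with the counts in the labels, in order of the share. Points are shares, bars are Wilson 95% intervals and the dashed line is the share of all tRNA genes, 17.8%. Arginine, 12 of 26, is at the top. The intervals of arginine and threonine lie above the line, those of cysteine and alanine lie below it, and the others cross it.

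Members of a numbered family, which share the amino acid, the anticodon and the first number of the symbol, often differed in whether a summit was near. Of 57 families with 2 or more genes, 27 had some but not all members near a summit, 26 had none and 4 had all (TRE-TTC2, TRG-CCC2, TRR-TCT3 and TRV-TAC1). The largest, TRD-GTC2, had 3 of 11 near a summit, TRN-GTT2 had 3 of 8, TRF-GAA1 3 of 6 and TRY-GTA5 3 of 5, while TRH-GTG1 had 0 of 9 and TRG-GCC2 0 of 6. Of the 201 families with a single gene 27 were near a summit. The 20 genes whose symbols carry no such number had none.

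Genes just inside the limit of 1000 bp were TRR-CCG1-3 (799 bp), TRD-GTC2-11 (823 bp), TRP-AGG2-1 (841 bp), TRR-TCT1-1 (880 bp) and TRY-GTA5-2 (967 bp). Just outside it were TRS-GCT4-3 (1005 bp), TRD-GTC2-9 (1043 bp), TRV-CAC1-5 (1049 bp, fold 14.3), TRQ-CTG6-1 (1059 bp) and TRT-TGT5-1 (1093 bp). TRD-GTC2-11 and TRD-GTC2-9, on different sides of the limit, belong to 1 family, and TRS-GCT4-3 has the same nearest peak as TRT-AGT1-1 and TRI-AAT5-5.

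Other genes that RNA polymerase III transcribes had a near summit in 9 of 37 cases (24.3%), where 19.7% of genes of all classes and 2.71% of other genes up to 200 bp long did. The list holds genes longer than that, and 17 of the 37 are copies of the 5S ribosomal RNA gene in 1 array. The 9 were RMRP, the RNA of RNase MRP, with the summit inside the gene and a fold of 18.2, the U6 genes RNU6-2 (71 bp, 22.4), RNU6-1 (302 bp, 9.25) and RNU6-9 (307 bp, 6.26), and RPPH1, the RNA of RNase P, which cuts the 5′ leader from tRNA precursors (226 bp, 5.06). The 7SL genes of the signal recognition particle, RN7SL1 (406 bp, 22.9) and RN7SL2 (120 bp, 4.04), the Y RNA gene RNY5 (310 bp, 9.02) and RN7SK (312 bp, 3.90) complete them. None of the 5S copies was among them. The groups overlap, since these U6 genes and RN7SK are also counted among the 17 near small nuclear RNA genes. These U6 genes and RNY5 are also among the other genes up to 200 bp long. A protein-coding end lay within 1000 bp of RMRP (273 bp), RNU6-2 (399 bp), RPPH1 (224 bp), RNU6-9 (297 bp) and RN7SK (336 bp). RNU6-1, RN7SL1, RN7SL2 and RNY5 were over 5000 bp from every such end. To which gene a shared summit belongs was not tested. Some of these genes have promoters of another layout than tRNA genes, and the counts were not compared by a test.

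Genes for the polymerase III machinery itself had a summit within 1000 bp of an end in 24 of 30 cases, where 37.6% of protein-coding genes did. The list was not tested. The bound members had a median fold of 11.8 (quartiles 8.08 and 19.2) and include all 6 TFIIIC subunit genes, GTF3C1 to GTF3C6, with folds from 5.28 at GTF3C1 to 31.9 at GTF3C3. Of the TFIIIB genes TBP was bound (fold 9.84), whereas BRF1, BRF2 and BDP1 had no summit that close to a span end, at 14836, 21846 and 530434 bp. A peak deep inside a long gene is missed by this count, and BRF1 is long (chr14:105209286-105315589). With any base of a peak within 1000 bp of the gene span counted, 26 of the 30 had a peak. That rule is wider, and the share of all protein-coding genes by it was not computed.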

How the data were processed

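MYC ChIP-Rx was done in U2OS cells with 2 IP libraries and 1 input. Per the labels' protocols, fixation took 10 min in 1% formaldehyde, fragments were 200 to 500 bp long, and each library started with 5 ng and took 9 cycles of PCR. Tools named in the submitters' processing notes are MACS2, Bowtie2, cutadapt, Picard and SAMtools, and builds named there are hg38, hg19 and mm10. No source used here gives versions, scaling, the use of mouse reads, the treatment of reads that match several places, or whether IP libraries were pooled. The name of the deposited peak list gives hg38.

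In that list the authors give, for each peak, a fold enrichment (a linear ratio), a −log10 q-value and a score, which was not used. Reads without molecular identifiers are not independent molecules, no per-library values were analysed, and so no replicate error could be computed.

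Genes came from RefSeq GRCh38.p14, which gives spans without strand. Summits, as 1-based positions, were matched to genes with Python 3.11.15, pandas 2.3.3 and numpy 2.4.6, with distances checked on constructed cases. Amino acid and anticodon were read from symbols. Where RefSeq windows hold the B box, it gave the strand. Named genes follow a rule: the 12 strongest near peaks by −log10 q and the 5 strongest away from protein-coding ends, clusters of 10 or more, special tRNA types, the 5 genes on each side of 1000 bp, and near members of the other polymerase III genes. The members, lists and rules were chosen with earlier results of these data known. No enrichment or chance test was run.

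The counts were recomputed with windows of 500 and 5000 bp, with peaks in the stronger 50% or with a −log10 q of 10 or more, with peak edges in place of summits, with cluster gaps of 5000 and 100000 bp, from the middle of the gene, and with each locus or peak taken once.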

Additional observations from a re-analysis of the deposited data

How the results depend on the processing

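All values rest on 1 peak list, so precision and depth per library cannot be given, and leaving out a library was not possible. No paired analysis was possible because no per-library values were used. Of 55 recomputed values, 48 stayed within 1.5 times the reported one. This tally is no measure of robustness, since some values could not move. Every symbol gives an amino acid, so the count of such near genes stayed at 79. Taking each locus once gave 58 of 173 loci (33.5%), beside 79 of 443 genes (17.8%). With the stronger 50% of peaks 40 tRNA genes were near a summit, 26 of them themselves over 1000 bp from protein-coding ends, in 7 clusters, and 4 other polymerase III genes were. These counts are lower by construction, since fewer peaks remain. A window of 5000 bp gave 70 near tRNA genes over 1000 bp from protein-coding ends, where the reported count is 44, and 42 with annotated starts counted as ends, an alternative added after seeing the data. Without summits at protein-coding ends, chosen after seeing the data, 47 tRNA genes were near, and without chromosomes 1 and 6, likewise, 65. With −log10 q in place of fold the median per near gene was 50, on another scale than the median fold of 8.19. Within 500 bp there were 61 near tRNA genes, within 5000 bp 109, and counting any base of the peak 88. Shares over all genes were not computed for these windows, for the stronger peaks or for peak edges.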
